A study of Mus musculus with 6 samples.

Results

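The messages of 10 genes were followed that encode factors for stalled and collided ribosomes in the mouse: Ltn1, Nemf, Pelo, Hbs1l, Zfp598, Rack1, Map3k20, Gcn1, Eif2ak4 and Edf1. They were listed by name for what their proteins do, with earlier results of these data known, and all 10 of them were found among the 51912 genes measured and among the 13231 that passed a filter on low counts. Gcn1 is carried under its older name Gcn1l1 in the annotation used. The libraries measure messages only. Neither the encoded proteins nor stalling itself was measured.

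A ribosome that stops on a message is soon run into by the one behind it, and the surface formed where they meet is what the cell reads as a fault. GCN1, with the kinase GCN2 (gene Eif2ak4), turns such collisions into the integrated stress response, and the kinase ZAK (gene Map3k20) turns them into p38 and JNK signalling, the ribotoxic stress response. The ubiquitin ligase ZNF598 (gene Zfp598) marks the small subunit of collided ribosomes, EDF1 binds them and helps shut off initiation on the same message, and RACK1, a constant small-subunit protein, lies at the contact face. Pelota (Pelo) and HBS1L free ribosomes stalled at the end of broken messages, and the large subunit that remains, still carrying its nascent chain, is met by NEMF and the ligase Listerin (Ltn1).

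The cells were E14, a widely used line of mouse embryonic stem cells, grown on gelatin in medium with serum and leukemia inhibitory factor, with no genetic change named in the labels. Every culture, in both groups, received 100 µg/mL cycloheximide for 3 minutes before harvest, a drug that stops elongating ribosomes where they are. Lysates were centrifuged through sucrose cushions, and the ribosome-containing pellets were either extracted at once (the pellet group, 3 libraries) or first passed over a cysteine-charged resin and eluted (the eluate group, 3 libraries), the procedure named RAPIDASH. The comparison asks which polyadenylated messages the resin step enriches or depletes beyond the cushion. The labels number the replicates without saying whether they were separate cultures, so the p-values speak only of the spread among these 6 samples, which may be technical.

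Totals were 7.84e+06 to 1.04e+07 estimated counts in the pellets and 1.002e+07 to 1.16e+07 in the eluates. Pellet 1 stood apart from pellets 2 and 3 on the first principal component (-19.1 against -42.9 and -45.3, with the eluates at 30.5 to 41.8), so each member is also given without it. All 10 stem cell markers listed, Pou5f1 and Nanog among them, exceeded 1 TPM. Their summed level was 11615 to 13029 TPM in the pellets and 15441 to 15501 in the eluates, most of it from Dppa5a (7529 ± 443 and 10288 ± 85.1 TPM). Of the 10, 5 were called higher and 2 lower (Sox2, -0.29, and Zfp42, -0.21), and Nanog, Klf4 and Tdgf1 were not called. With each library's trend in GC and length removed, a setting explained further on, Pou5f1 turned from 0.39 to -0.15, both called. In that setting Nanog (0.22) and Tdgf1 (0.27) were called higher and Klf4 (-0.26) lower, and Zfp42 lost its call (-0.0086). Of 15 markers of endoderm, trophoblast, feeder and neural cells, 5 exceeded 1 TPM and Elf5 was listed at 0 in every library. The summed level of the 15 was 15.8 to 20.1 TPM in the pellets and 19.6 to 22.4 in the eluates. Of the 7 of them that passed the filter, 2 were called higher in the eluates, Thy1 (7.16 ± 1.68 and 10.5 ± 1.65 TPM, log2 fold change 0.70, adjusted p = 0.0013) and Sox17 (0.921 ± 0.311 and 1.20 ± 0.531 TPM, 1.05, adjusted p = 0.0195). Neither was called with the GC and length trend removed (adjusted p = 0.108 and 0.181). Sox17 rested on 8 to 36 estimated counts a library, and its TPM values overlapped between the groups. It was not called with DESeq2 (adjusted p = 0.0656) or without eluate 1 (edgeR, adjusted p = 0.116). The part of these markers in the results was not tested.

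Base composition and length turned out to follow the changes reported here, so stretches of 5 coding sequences are shown first. Each line is the middle 30 codons of the coding sequence of the gene's most abundant transcript, 5′ to 3′ on the sense strand, from GENCODE mouse release 21 (build GRCm38). Capitals mark a G or C at the third position of a codon. Nemf and Ltn1 had the lowest fold changes of the 10 genes, Pelo and Edf1 the highest, and Gcn1 is a GC-rich message that was nevertheless lower in the eluates.
Nemf codons 518 to 547: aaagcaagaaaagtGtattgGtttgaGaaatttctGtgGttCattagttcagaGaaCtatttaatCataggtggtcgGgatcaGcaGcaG
Ltn1 codons 869 to 898: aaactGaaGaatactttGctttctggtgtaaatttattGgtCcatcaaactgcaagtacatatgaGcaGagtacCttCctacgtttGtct
Pelo codons 178 to 207: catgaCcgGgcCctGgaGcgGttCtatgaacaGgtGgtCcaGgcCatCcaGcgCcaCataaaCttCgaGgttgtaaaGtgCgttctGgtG
Edf1 codons 60 to 89: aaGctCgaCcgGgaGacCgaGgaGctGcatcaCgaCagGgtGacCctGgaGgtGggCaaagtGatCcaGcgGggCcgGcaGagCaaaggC
Gcn1 codons 1321 to 1350: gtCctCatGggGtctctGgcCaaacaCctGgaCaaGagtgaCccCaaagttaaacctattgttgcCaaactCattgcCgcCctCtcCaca

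In these windows 13 of 30 codons of Nemf and 10 of 30 of Ltn1 end in G or C. The counts are 23 of 30 in Pelo, 27 of 30 in Edf1 and 18 of 30 in Gcn1. Over the whole coding sequence the share of codons ending in G or C is 38.3% in Nemf (1064 codons), 48.0% in Ltn1 (1767 codons), 75.1% in Pelo (385 codons), 74.3% in Edf1 (148 codons) and 74.3% in Gcn1 (2671 codons). The Ltn1 and Gcn1 windows are thus poorer in G and C at that position than their whole coding sequences, and the Edf1 window is richer.

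The eluates held less than the pellets of the messages for the quality-control pair Ltn1 and Nemf, which were 2.72-fold and 2.97-fold lower, and less of Gcn1, Eif2ak4 and Hbs1l. They held more of Edf1, Pelo, Zfp598 and, by a small margin, Rack1. Map3k20 did not pass the test. In counts, 4 of the 10 genes rose, 5 fell and 1 was not called (edgeR's quasi-likelihood test, Benjamini-Hochberg adjusted p under 0.05 over all 13231 genes, 3 libraries a group). The background is high: 52.7% of all genes tested were called, 24.5% higher and 28.2% lower. The median log2 fold change was -0.27 for the 10 genes and 0.0035 for all genes tested.

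The groups did not overlap for 9 of the 10 genes, 4 with every eluate above every pellet and 5 with every eluate below, whereas 29.1% and 31.2% of all tested genes were separated in these directions. Values are counts scaled to a common library total with TMM factors (CPM), and each change is given on the log2 scale, positive where the eluates were higher, ± its SE. A CPM is a share of its library, so a message lost on the resin and a gain of other messages cannot be told apart. Nor, in bulk material, can fewer cells of a type and less RNA per cell.

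**Figure D1:**
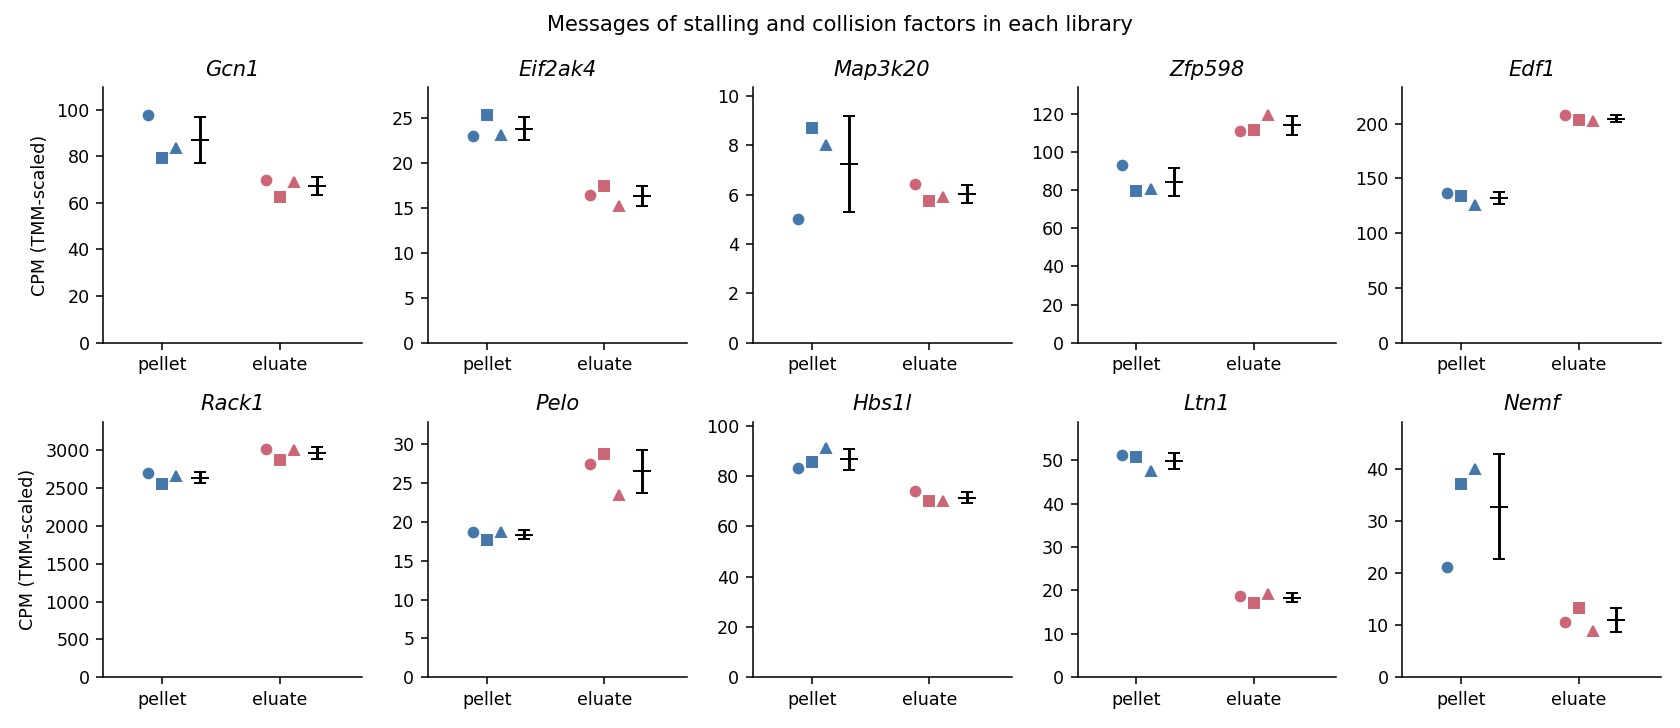
CPM of each of the 10 genes in the 3 pellet libraries (blue) and the 3 eluate libraries (red). The circle, square and triangle are replicates 1, 2 and 3, and the black bar is the mean with its SD. Map3k20 is the gene whose groups overlap, and pellet 1 lies low for Map3k20 and Nemf.

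The messages of the GCN1 and GCN2 arm were lower in the eluates. Gcn1, whose giant scaffold protein sits on collided ribosomes and activates GCN2, had 97.8, 79.1 and 83.5 CPM in pellets 1, 2 and 3, against 69.7, 62.6 and 69.0 CPM in eluates 1, 2 and 3. Every eluate lay below every pellet. Gcn1 changed by -0.37 ± 0.089 (1.29-fold lower; adjusted p = 0.00241), and by -0.28 without pellet 1, its highest library. Eif2ak4, which encodes the eIF2α kinase GCN2, was at 23.0, 25.3 and 23.1 CPM in the pellets against 16.4, 17.4 and 15.2 CPM in the eluates. Its groups were also separate, and it fell by 0.54 on the log2 scale (SE 0.12, adjusted p = 0.000994), or by 0.57 without pellet 1. These 2 messages kept their call and their direction in each of the 16 other settings tried.

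Map3k20, which encodes the ribosome-bound kinase ZAK, was the weakest message of the 10, with 43 to 86 estimated counts a library. It was at 5.01, 8.70 and 8.02 CPM in the pellets and at 6.45, 5.73 and 5.91 CPM in the eluates, so pellet 1 lay below all 3 eluates and pellets 2 and 3 above them. The change of -0.27 ± 0.21 did not pass the test (adjusted p = 0.297), and its 95% interval of -0.70 to 0.17 takes in both directions. Without pellet 1 the change was -0.48 and was called (adjusted p = 0.0348). The result for Map3k20 thus rests on that library.

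The factors that act on the collided small subunits had higher values in the eluates. Zfp598, the ligase that marks collided ribosomes with ubiquitin, was at 93.0, 79.5 and 80.6 CPM in the pellets and at 111, 111 and 120 CPM in the eluates. No eluate came down to the highest pellet, and Zfp598 rose by 0.43 ± 0.079 (1.35-fold; adjusted p = 0.000269), or by 0.51 without pellet 1. Tested on log2(TPM + 1) with limma it missed the threshold (adjusted p = 0.0521). Edf1, a small coactivator protein that binds collided ribosomes, was at 136, 134 and 126 CPM in the pellets against 208, 203 and 202 CPM in the eluates. The 6 libraries formed tight, separate groups, and its rise of 0.63 ± 0.066 was the highest of the 10 (1.55-fold; adjusted p = 1.52e-06), and 0.65 without pellet 1. Neither gene kept its call with the GC and length trend removed. In that edgeR fit Zfp598 was at 0.097 (adjusted p = 0.231) and Edf1 at -0.060 (adjusted p = 0.447).

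Rack1, the small-subunit protein at the collision interface, was by far the most abundant of these messages, at 2699, 2552 and 2660 CPM in the pellets and 3011, 2875 and 3006 CPM in the eluates. The groups were separate but close, with a change of 0.17 ± 0.061 (1.12-fold; adjusted p = 0.0297). That call was fragile: it held without pellet 1 (adjusted p = 0.00441) and was lost without each of the other 5 libraries in turn. The adjusted p was 0.0656 without pellet 2, 0.0759 without pellet 3, 0.111 without eluate 1, 0.0658 without eluate 2 and 0.0928 without eluate 3. On log2(TPM + 1) it was not called (limma, adjusted p = 0.430), and its TPM values overlapped between the groups.

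The rescue partners went opposite ways. Pelo, the release-factor-like protein that enters the empty decoding site of a stalled ribosome, was at 18.7, 17.7 and 18.7 CPM in the pellets and at 27.5, 28.7 and 23.4 CPM in the eluates. All 3 eluates exceeded the pellets, and Pelo rose by 0.53 ± 0.12 (1.45-fold; adjusted p = 0.0012), or by 0.55 without pellet 1. Hbs1l, the GTPase that delivers Pelota, was at 83.1, 85.5 and 91.3 CPM in the pellets, against 74.0, 70.2 and 70.1 CPM in the eluates. The message was lower in all 3 eluates, by 0.28 on the log2 scale (SE 0.075; -0.28 ± 0.075, adjusted p = 0.0055), and at -0.31 without pellet 1.

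The 2 messages of the nascent-chain arm had the lowest values in the eluates relative to the pellets. Ltn1, the ligase that ubiquitinates chains stuck on the large subunit, was at 51.2, 50.6 and 47.6 CPM in the pellets and at 18.7, 17.2 and 19.1 CPM in the eluates. The means were 49.8 ± 1.95 and 18.3 ± 1.01 CPM (SD, n = 3), a wide gap beside a narrow spread. Ltn1 changed by -1.44 ± 0.096 (adjusted p = 4.40e-08), lower than all but 3.09% of tested genes, and by -1.43 without pellet 1.

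Nemf, which finds the obstructed subunit, recruits Listerin and adds a tail to the chain, was at 21.2, 37.1 and 40.1 CPM in the pellets, against 10.7, 13.4 and 8.91 CPM in the eluates. Pellet 1 held much less of it than pellets 2 and 3 but still more than any eluate. The change was -1.57 ± 0.27 (adjusted p = 0.00186), lower than all but 2.13% of tested genes, and -1.81 without pellet 1. Nemf and Ltn1, too, kept call and direction in all 16 other settings.

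**Figure D2:**
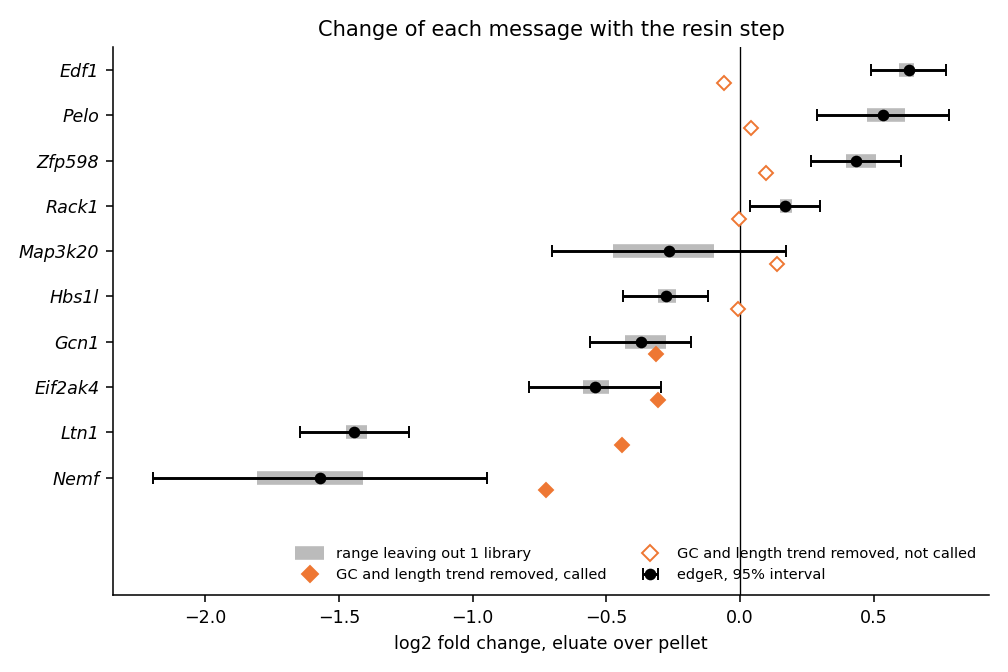
Log2 fold change, eluate over pellet, of each gene with its 95% interval (black), the range when 1 library is left out (grey bar), and the value after removal of each library's trend in GC and in length (orange, filled where called). Ltn1 and Nemf lie near -1.5, and after the trend is removed Ltn1, Nemf, Gcn1 and Eif2ak4 are the genes still called.

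Between genes, levels were compared in TPM, which is scaled by transcript length. Rack1 came first in both groups (2114 ± 222 TPM in the pellets and 2225 ± 91.9 in the eluates, SD, n = 3) and Edf1 second (269 ± 24.6 and 384 ± 8.16). Hbs1l was above Zfp598 in the pellets (34.9 ± 2.57 against 27.8 ± 4.03) and below it in the eluates (27.7 ± 1.38 against 34.0 ± 1.51). In the pellets the separation of these 2 genes was small beside the spread of Zfp598, whose pellet 1 reached 32.4 TPM against 32.1 for the lowest Hbs1l library.

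Below them came Pelo (13.6 ± 1.08 and 17.9 ± 1.75 TPM) and Gcn1 (10.1 ± 1.77 and 7.09 ± 0.494). In the pellets the lowest Gcn1 library, at 8.75 TPM, lay below the highest Nemf library, at 9.33, so Gcn1 and the next gene were not separated there. Nemf and Ltn1 were close in the pellets, at 7.74 ± 1.87 and 7.21 ± 0.854 TPM, and in the eluates, at 2.60 ± 0.477 and 2.59 ± 0.168, and in neither group did they differ beyond their spread. Eif2ak4 was at 4.90 ± 0.123 TPM in the pellets, below both, and at 3.04 ± 0.184 in the eluates. There its lowest library, at 2.82 TPM, lay below the highest Nemf library, at 3.09, so Eif2ak4 and Nemf overlapped. Map3k20 was last, at 1.59 ± 0.254 and 1.44 ± 0.157 TPM.

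Because partner proteins work as pairs, the log2 ratio of their TPM was compared within each library, which does not depend on scaling between libraries. For Pelo over Hbs1l the ratio of TPM was 0.398, 0.392 and 0.378 in the pellets and 0.639, 0.723 and 0.585 in the eluates. The log2 ratio was -1.36 ± 0.038 and -0.63 ± 0.15 (SD, n = 3), a difference of 0.73 with no overlap (two-sided exact permutation test, p = 0.1, adjusted p = 0.2 over 4 ratios). A p of 0.1 is the smallest that 3 libraries against 3 can give. Both these messages changed on their own above, in opposite directions, and the ratio carries the same counts. With the trend in GC and length removed neither gene was called, at 0.040 for Pelo and -0.0085 for Hbs1l.

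For Zfp598 over Edf1, the log2 ratio was -3.28 ± 0.10 in the pellets and -3.50 ± 0.059 in the eluates, a difference of -0.21 with no overlap (exact permutation p = 0.1, adjusted p = 0.2). Zfp598 was thus lower relative to Edf1 in the eluates, although each was higher than in the pellets. The ratios were not refitted with the trend in GC and length removed. In the per-gene fit with it removed, Zfp598 was at 0.097 and Edf1 at -0.060, neither called, so their order turned over. Gcn1 over Eif2ak4 differed by 0.20 and Ltn1 over Nemf by 0.088, and in both the groups overlapped (exact permutation p = 0.3 and p = 0.9, adjusted p = 0.4 and 0.9). Leaving out pellet 1 took the Ltn1 over Nemf difference to 0.39, and leaving out pellet 2, pellet 3 or eluate 3 turned its sign.

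Transcripts were resolved for 3 genes with more than 1 transcript at a mean of at least 0.5 TPM. Hbs1l-209, with 682 codons, encodes the full GTPase and held 78.3% of the gene's TPM. It was at 28.5, 25.9 and 28.8 TPM in the pellets and 20.1, 21.5 and 22.2 TPM in the eluates, with no overlap. Hbs1l-203, with 612 codons, shares only its first 140 codons with Hbs1l-209 and ends in another way. Its values of 5.02, 2.99 and 2.98 TPM in the pellets and 4.94, 3.34 and 2.76 TPM in the eluates overlapped throughout. The share of Hbs1l-209 in the gene was 79.5% ± 2.29 and 77.1% ± 7.18 (exact permutation p = 1.0), so no shift between the forms was detectable.

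Zfp598-202 (908 codons) and Zfp598-201 (905 codons) differ by 3 codons, and 99.2% of the 31-base words of Zfp598-201 are also in Zfp598-202, so reads can hardly be assigned between them. Zfp598-201 was at 11.0, 10.3 and 11.9 TPM in the pellets and 16.0, 17.1 and 15.9 TPM in the eluates, without overlap. Zfp598-202 was at 21.4, 14.7 and 13.96 TPM in the pellets and 17.4, 15.8 and 19.8 TPM in the eluates, which overlap. The share of Zfp598-202 was 59.6% ± 6.02 and 51.8% ± 3.73 (exact permutation p = 0.2, adjusted p = 0.3 over 3 genes).

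Map3k20 has a long-protein transcript, Map3k20-201 (802 codons, 3334 nt), and a shorter-protein one, Map3k20-204 (454 codons, 6663 nt), which share the first 329 codons. Both encode the kinase domain, and the ends after it differ. Map3k20-204 was at 0.460, 0.785 and 0.862 TPM in the pellets and 0.407, 0.434 and 0.420 TPM in the eluates, separate by a small gap at pellet 1. Map3k20-201 was at 0.857, 1.03 and 0.781 TPM in the pellets and 1.20, 0.863 and 0.993 TPM in the eluates, and overlapped. The share of Map3k20-201 was 56.5% ± 8.78 in the pellets and 70.5% ± 4.09 in the eluates without overlap (exact permutation p = 0.1, adjusted p = 0.3). Each of these transcripts rests on 18.7 to 52.1 estimated counts a library.

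**Figure D3:**
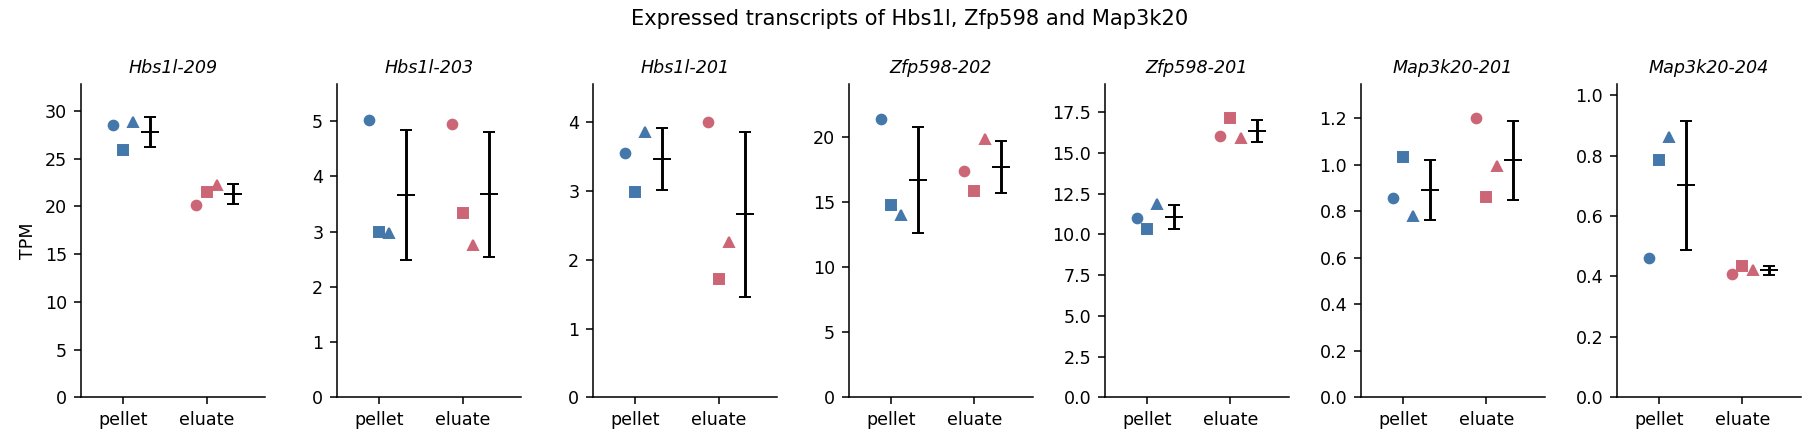
TPM of the 7 expressed transcripts of Hbs1l, Zfp598 and Map3k20 in each library (pellets blue, eluates red; circle, square and triangle are replicates 1 to 3), with mean and SD in black. The groups are separate for Hbs1l-209, Zfp598-201 and Map3k20-204 and overlap for the other 4.

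Within the 10 genes, the order of the changes followed the make-up of the message. Spearman's rho of the log2 fold change with GC content was 0.79 and with message length -0.81 (n = 10 genes). Over all tested genes it was 0.71 with GC content and -0.43 with length (n = 13231). Genes are not independent replicates and share these 6 libraries, so these are descriptions only. Ranked by GC content, the lowest 1323 genes (median 40.4% GC) had a median log2 fold change of -0.94 and the highest 1324 (median 60.2%) one of 0.49. By length, the shortest 1323 (median 732 nt) were at 0.31 and the longest 1324 (median 7189 nt) at -0.61.

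Ltn1 (42.6% GC) and Nemf (42.4% GC) lie near the low end of that scale, and Edf1 (61.1%), Zfp598 (59.2%) and Pelo (57.9%) near the high end. Gcn1 is rich in GC, at 58.6%, yet it was lower in the eluates, and it is one of the longest messages, at 8555 nt. Edf1, at 722 nt, is shorter than all but 4.85% of tested genes.

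**Figure D4:**
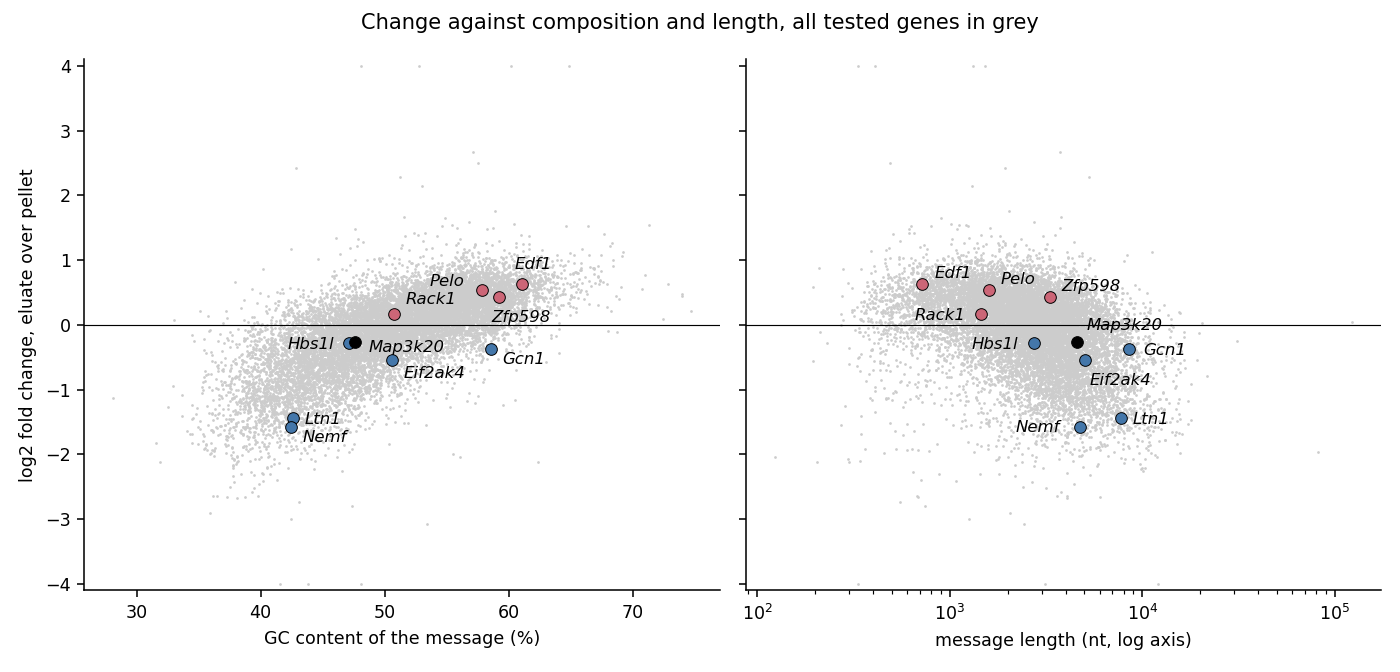
Log2 fold change, eluate over pellet, against GC content of the message (left) and message length (right, log axis), for all tested genes (grey, drawn at 4 or -4 where beyond) and the 10 genes (red higher, blue lower, black not called). The genes follow the grey cloud, with Gcn1 below it in the left panel.

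The smooth trend of each library in GC and in length was then removed before the same edgeR test. Of the 10 genes, 0 were higher (0 also at an unadjusted p under 0.05) and 4 lower, where 19.1% and 15.8% of all tested genes were called in these directions. The 4 were the same Ltn1, Nemf, Gcn1 and Eif2ak4. Ltn1 was at -0.44 (adjusted p = 0.00254), Nemf at -0.73 (adjusted p = 0.0020), Gcn1 at -0.31 (adjusted p = 0.000451) and Eif2ak4 at -0.31 (adjusted p = 0.0299). The changes of Ltn1 and Nemf were thus much smaller than without the correction, and that of Gcn1 was nearly as large.

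The 4 genes called higher lost their call: Edf1 went to -0.060 (adjusted p = 0.447), Pelo to 0.040 (adjusted p = 0.822), Zfp598 to 0.097 (adjusted p = 0.231) and Rack1 to -0.0057 (adjusted p = 0.951). Hbs1l was at -0.0085 (adjusted p = 0.940) and Map3k20 at 0.14 (adjusted p = 0.613). With the GC trend alone removed, 1 gene was higher (Rack1, 0.19, adjusted p = 0.0155) and 4 were lower, against 22.3% and 18.9% of all tested genes. Gcn1 then stood at -0.76 (adjusted p = 2.05e-10), and Hbs1l turned to 0.034 (adjusted p = 0.731).

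The other genes of these pathways were read in 7 lists of 60 genes, all of which passed the filter. Of them, 17 rose, 23 fell and 20 were not called, and the median was -0.038 on the log2 scale. That is 66.7% called, against 52.7% of all genes tested (24.5% higher and 28.2% lower). By list the share called was 50% for the ligases and deubiquitinases, 55.6% for ribosome quality control, 57.1% for the kinases and 61.5% for the integrated stress response, near the background. It was 75% of the 4 genes of the splitting complex, 87.5% for silencing and decay and 88.9% for termination and rescue. With the GC and length trend removed, 15 were higher, 9 of them among the 17, and 13 lower, 12 of them among the 23, against 19.1% and 15.8% of all genes tested. Another 3 of the 15 had been called lower before and so turned over with a call both times: Riok3 (-0.28 to 0.35), Map2k4 (-0.25 to 0.27) and Eif2s1 (-0.54 to 0.29), named here after their values were seen. The lists are described below in the order of the pathway, with CPM means ± SD (n = 3).

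Of 8 genes for silencing and decay of the faulty message, 6 fell and 1 rose, with a list median of -0.74. Xrn1, the exonuclease that degrades messages from the 5′ end, went from 43.1 ± 3.77 to 15.0 ± 1.67 CPM (-1.52 ± 0.11, adjusted p = 1.19e-07). Eif4e2, the cap-binding protein that blocks initiation with GIGYF2, rose from 303 ± 9.32 to 403 ± 5.04 CPM (0.41 ± 0.061, adjusted p = 4.09e-05). With the trend removed 5 of these genes were still lower and 0 higher, against 15.8% and 19.1% of all genes tested.

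Of 4 genes of the complex that splits collided ribosomes, 2 fell and 1 rose (median -0.30). Ascc3, its helicase, went from 21.6 ± 2.64 to 5.53 ± 0.846 CPM (-1.96 ± 0.16, adjusted p = 1.88e-07), and was still called at -0.93 with the trend removed. Ascc1, another subunit, was higher by 0.28 ± 0.092 (adjusted p = 0.0172). That call was lost without eluate 1 (adjusted p = 0.0726) and without eluate 3 (adjusted p = 0.0639), on log2(TPM + 1) with limma (adjusted p = 0.172), and with the trend removed, where Ascc1 was at 0.036 (adjusted p = 0.783).

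Of 10 other collision ligases and deubiquitinases, 3 rose and 2 fell (median 0.15). Rnf10, the ligase for small-subunit proteins uS3 and uS5, rose from 519 ± 45.6 to 761 ± 25.2 CPM (0.55 ± 0.071, adjusted p = 1.13e-05). Cnot4, a ligase linked to the deadenylase complex, went from 23.2 ± 4.24 to 11.2 ± 1.07 CPM (-1.05 ± 0.15, adjusted p = 2.75e-05). Mkrn1, which had the highest CPM of the list, stood at 784 ± 36.5 and 869 ± 34.4 CPM and was not called (0.15 ± 0.065, adjusted p = 0.0651). Without pellet 2 it was called (adjusted p = 0.0307), as it was with upper-quartile scaling (adjusted p = 0.00427), with the replicate block (adjusted p = 0.0429) and with the GC trend alone removed (adjusted p = 0.0330). With GC and length removed Mkrn1 was at -0.081 (adjusted p = 0.238).

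Of 9 genes that work beside Ltn1 and Nemf in ribosome quality control, 3 rose and 2 fell (median 0.081). Ubxn1, a cofactor of the segregase p97, was the most abundant and rose from 228 ± 4.35 to 339 ± 6.33 CPM (0.57 ± 0.061, adjusted p = 1.86e-06). Vcp, p97 itself, which pulls ubiquitinated chains off the large subunit, went from 333 ± 5.41 to 231 ± 23.5 CPM (-0.53 ± 0.074, adjusted p = 2.44e-05). With the trend removed Ubxn1 was at 0.010 and no longer called, and Vcp was at -0.41 and called. Among the genes not called, Nploc4 had a mean normalized count of 464, only 0.48 of the 964 in the authors' deposited table. There it is higher, at 0.36 (Wald test, adjusted p = 0.00336), so its result here rests on incomplete counts. The cause of the gap was not tested.

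Of 9 genes for termination, recycling and rescue, 5 fell and 3 rose (median -0.28). Eif5a, which eases slow peptide bonds, was the most abundant of the list and rose from 2054 ± 150 to 3220 ± 68.6 CPM (0.65 ± 0.067, adjusted p = 1.46e-06). Gspt1, the release factor eRF3a and a relative of Hbs1l, went from 225 ± 15.3 to 148 ± 11.0 CPM (-0.61 ± 0.075, adjusted p = 7.63e-06). Both kept their calls with the trend removed, at 0.22 and -0.23.

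Of 7 kinases downstream of ZAK, 2 rose and 2 fell (median -0.070). Map2k3, which phosphorylates p38, rose by 0.49 ± 0.076 (adjusted p = 5.72e-05), and Mapk14, p38α and the most abundant, by 0.24 ± 0.069 (adjusted p = 0.00942). Mapk8, the kinase JNK1, went from 29.5 ± 4.04 to 19.5 ± 1.58 CPM (-0.60 ± 0.12, adjusted p = 0.000702), and was at 0.017 with the trend removed, no longer called. In that fit the list had 4 genes higher and 0 lower (0 also at an unadjusted p under 0.05, edgeR) and a median of 0.21. Of all genes tested, 19.1% and 15.8% were called in these directions. Map2k4 turned from -0.25 to 0.27 (adjusted p = 0.00422) and Mapk9, not called before, was at 0.45 (adjusted p = 9.50e-06). With the GC trend alone removed, 3 of the list were higher and 0 lower, against 22.3% and 18.9% of all genes tested.

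Of 13 genes of the integrated stress response, 4 rose and 4 fell (median 0.13). Ppp1r15a, the stress-induced phosphatase subunit GADD34 that reverses eIF2α phosphorylation, rose from 48.0 ± 2.51 to 69.3 ± 4.21 CPM (0.53 ± 0.084, adjusted p = 7.44e-05). Impact, which competes with GCN2 for GCN1, went from 144 ± 10.5 to 93.6 ± 3.16 CPM (-0.62 ± 0.075, adjusted p = 5.47e-06). Atf4, the transcription factor at the end of this response and the most abundant, overlapped between groups (260 ± 14.3 and 276 ± 1.99 CPM, 0.082 ± 0.064, adjusted p = 0.301). With upper-quartile scaling Atf4 was called higher (0.17, adjusted p = 0.0382), and with the trend removed it was called lower, at -0.22. Impact was then at 0.13 and not called.

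**Figure D5:**
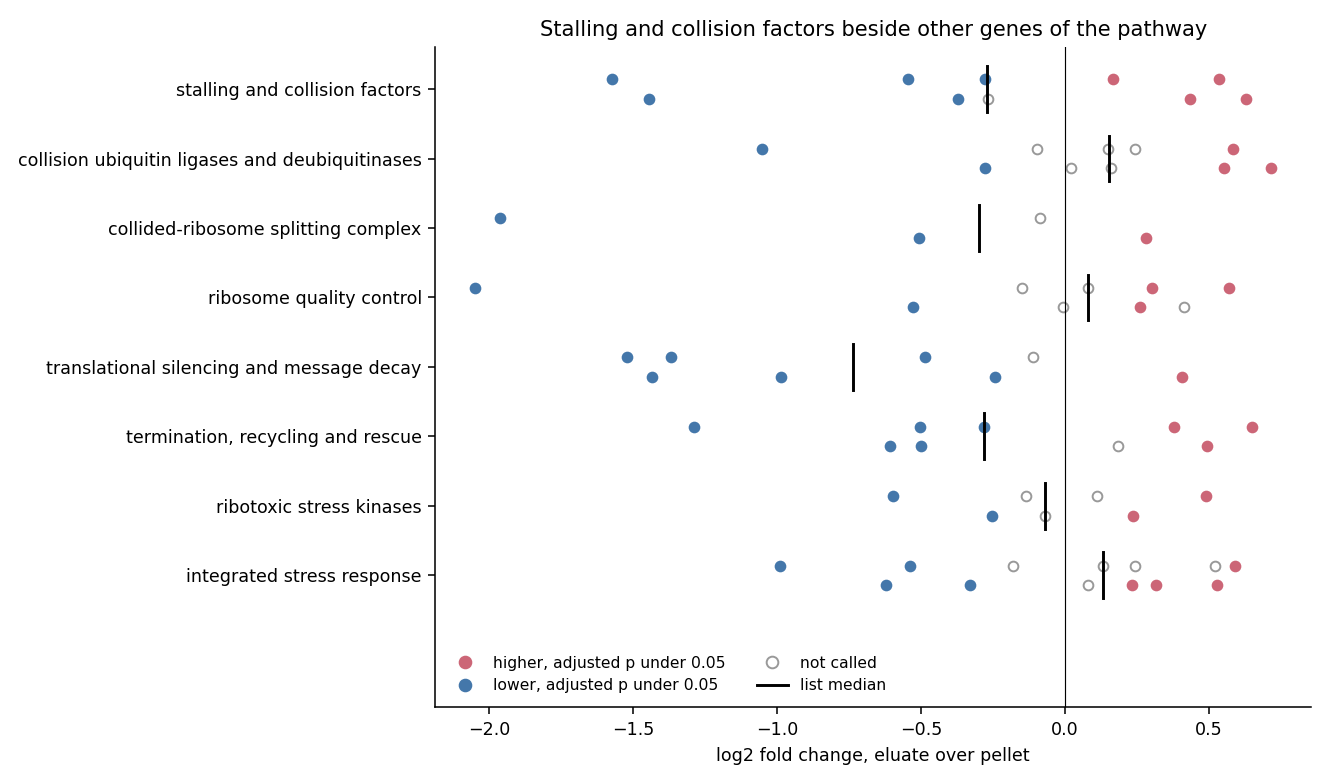
Log2 fold change, eluate over pellet, of the 10 stalling and collision factors (top row) and the 60 other genes of their pathways in 7 lists, with the list median as a black bar (red higher, blue lower, open circles not called). Every list holds genes on both sides of 0, and the silencing and decay list has the lowest median, -0.74.

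Some counts may be shared with other genes. Nemf exons overlap those of Klhdc2 on the opposite strand (3181 counts over the 6 libraries), and those of Rack1 overlap Trim41 (3530 counts). Nemf itself held 89 to 367 counts a library and Rack1 19913 to 34546. The sources used here do not give strandedness, so reads of such pairs may be mixed. None of the 16 other settings addresses such mixing. Pelo lies within Itga1 without sharing exons and shares 36.8% of its 31-base words with Gm49395, a coding gene model at the same place that held 13.5 counts. Of Hbs1l 14.4% and of Edf1 23.0% of the words occur in a processed pseudogene, Gm9923 and Gm11964, where few counts were assigned. No other gene holds as much as 50% of the words of any of the 10.

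The authors' deposited table, which lists 4892 genes with an adjusted p under 0.05, holds 8 of the 10 genes, 4 higher and 4 lower. Hbs1l and Map3k20 are not in the authors' deposited table. Hbs1l thus differs, as it was called lower here with edgeR (adjusted p = 0.0055) and with DESeq2 (adjusted p = 0.0114). The cause of that difference was not tested. For Ltn1 it gives a log2 fold change of -1.39 and for Nemf -1.47. In the authors' deposited table Gcn1 is at -0.41, Eif2ak4 at -0.61, Edf1 at 0.60, Pelo at 0.49, Zfp598 at 0.39 and Rack1 at 0.16, the last with an adjusted p of 0.0331.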

How the data were processed

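Polyadenylated RNA of 6 libraries was analysed. Per the file headers, each library's file holds the authors' Salmon output, with an estimated count and a TPM per transcript. The submitters' processing notes name Salmon 1.10.3, STAR 2.7.11b, cutadapt 4.7, DESeq2 1.44.0 and build GRCm39, without their roles. The sources used here do not give strandedness or the annotation release. The authors' deposited comparison table holds mean normalized counts as a signal, log2 fold changes, a Wald score and p-values.

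Of 84226 transcripts, 76858 from 51912 genes had their identifier in GENCODE mouse release 21 (build GRCm38, whose coordinates are not used). The 7368 others held 1.63% to 2.35% of a library's counts and were left out. Gene sums of the deposited estimated counts were rounded to integers and tested with edgeR 4.0.16 in R 4.3.3 (robust quasi-likelihood, TMM, default low-count filter, Benjamini-Hochberg). SE is the change divided by the root of the F statistic. On data simulated for this comparison over 13231 genes, 54% of genes changed 1.5-fold and 82% of those changed 2-fold were recovered (50 each), and 15 of 175 calls were false. The simulation changed 50 genes at each of 1.5-, 2-, 3- and 4-fold and held no GC or length trend. In the data 52.7% of genes were called, so these rates may not carry over. Ratios and transcript shares were compared by two-sided exact permutation tests, and Spearman's rho was computed with scipy 1.17.1. Alternatives were DESeq2 1.42.0, limma 3.58.1 on log2 TPM, other scaling factors, no filter, a replicate block, removal of GC and length trends (splines, 5 degrees of freedom), and each library left out.

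Members and lists were chosen with earlier results of these data known. Named were all 10 members and, per list, the called gene with the smallest p in each direction and the gene with the highest mean CPM.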

Additional observations from a re-analysis of the deposited data

How the results depend on the processing

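Each gene was refitted in 16 alternative settings. Ltn1, Nemf, Gcn1 and Eif2ak4 kept call and direction in all of them. Of the refits of the 10 genes, 136 kept the call (Map3k20, never called in them, changed sign in 3), 18 lost it, 1 gained it and 5 reversed. The reversals were Hbs1l at 0.034 with the GC trend removed, Rack1 at -0.0057 and Edf1 at -0.060 with the GC and length trend removed, and these 2 at -0.0052 and -0.059 with the replicate block as well. In the same order of settings (GC alone, GC and length, GC and length with the block), Mapk8 turned to 0.11, 0.017 and 0.019 and Impact to 0.11, 0.13 and 0.13. Atf4 turned to -0.22 in both fits on GC and length, and 3 other pathway genes were called on the other side of 0 with GC and length removed. The number of the 10 genes called higher was 2 with limma on log2(TPM + 1) or (TPM + 0.1), 1 with the GC trend removed, and 0 with GC and length removed, with or without the block. Of the 60 pathway genes, 10 were higher in either limma fit and 13 lower in either GC and length fit. Over all genes, limma called 1960 (14.8%) higher with a pseudocount of 1 and 1949 (14.7%) with 0.1. With GC and length removed 2097 (15.8%) were lower, and 2085 (15.8%) with the block too. The cause of these differences was not tested.

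Leaving out 1 library gave 3 to 4 of the 10 genes higher and 5 to 6 lower. In these fits 19.4% to 27.5% of all genes tested were higher and 23.9% to 29.9% lower. The 6 lower came without pellet 1, the fit with the largest share of all genes called (57.4%). The Ltn1 over Nemf difference ranged from -0.12 to 0.39, with -0.011 without pellet 2, -0.12 without pellet 3 and -0.079 without eluate 3. The share of Hbs1l-209 changed by -4.60 to 1.76 percentage points, and was positive without eluate 1. The labels do not say that the numbers pair the libraries, so the replicate block was only an alternative. Same-numbered libraries correlated in their deviations at 0.070, 0.15 and -0.010. Eluates 1 and 2 correlated best with the pellet of their own number, and eluate 3 with pellet 1 (0.11). Such correlations within groups of 3 cannot settle whether the libraries are paired. With the replicate block, 4 of the 10 genes were higher and 5 lower, against 3306 (25.0%) and 3770 (28.5%) over all genes. Counts for Map3k20, 43 to 86 a library, limit what can be detected there.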
